A study of Mus musculus with 15 samples.

Results

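The genes described here are Cd14 and 9 Toll-like receptors (Tlr1, Tlr2, Tlr3, Tlr4, Tlr5, Tlr6, Tlr7, Tlr8 and Tlr13), 10 of the 48795 genes counted in mouse ear tissue. They were chosen by symbol, with earlier results of these data known. The symbols were paired with the Ensembl identifiers of the count tables through GENCODE M21 on GRCm38, and each symbol matched 1 identifier. The ears came from female mice aged 5 weeks in a model of ear inflammation raised with PMA (phorbol 12-myristate 13-acetate), which irritates skin and switches on protein kinase C. There were 6 libraries labelled PMA_1002 (PMA and the innate defense regulator peptide 1002), 4 labelled PMA_ethanol (PMA and ethanol) and 5 labelled control, and the labels name the same inflammation model for all 3 groups. By its title the study was about the anti-inflammatory activity of the peptide in sterile inflammation. The sources used here do not give the strain, doses, times, the vehicle of the peptide or what the control ears received, so peptide and vehicle cannot be told apart. Whether each library is a separate animal is not in the labels, and p-values then reflect only how these libraries vary, which may be technical.

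Toll-like receptors are sentinel proteins of innate immunity that recognise parts of microbes and, in some settings, molecules released by damaged tissue. Tlr1, Tlr2, Tlr4, Tlr5 and Tlr6 work at the cell surface, whereas Tlr3, Tlr7, Tlr8 and Tlr13 work in endosomes, where they meet nucleic acids. Most signal through the adaptor Myd88 to NF-kB and MAP kinases, Tlr3 signals through Ticam1 (TRIF), and Tlr4 uses both. Cd14 is a co-receptor that passes lipopolysaccharide to the complex of Tlr4 and Ly96. In skin these receptors are found on resident and recruited myeloid cells, and some of them on keratinocytes and endothelium.

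The promoter stretches below were taken from RefSeq on GRCm38.p6 and are shown for the receptors at the extremes of the results: Tlr2 and Tlr13, the Toll-like receptors with the highest levels in PMA_ethanol ears, and Tlr5, the one with the largest fall. RefSeq windows ran from 250 bases before to 50 bases after the annotated start and were searched for 7 of the 10 genes. Cd14 was left out of this search by choice, and no window was at hand for Tlr4 and Tlr7. Each line gives the bases before the start that lie outside GENCODE exons of the gene, 5′ to 3′ on the gene's strand, and capitals mark matches on either strand to the kappaB consensus of NF-kB, to the AP-1 letters TGANTCA, to the PU.1 core GAGGAA or to the ISRE core (GAAA, any 2 bases, GAAA). The stretch shown for Tlr2 lies at chr3:83841768-83841858 (minus strand), that for Tlr13 at chrX:106143025-106143203 (plus strand) and that for Tlr5 at chr1:182954538-182954787 (plus strand).
Tlr2: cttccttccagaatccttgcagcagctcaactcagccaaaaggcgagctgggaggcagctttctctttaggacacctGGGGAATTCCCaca
Tlr13: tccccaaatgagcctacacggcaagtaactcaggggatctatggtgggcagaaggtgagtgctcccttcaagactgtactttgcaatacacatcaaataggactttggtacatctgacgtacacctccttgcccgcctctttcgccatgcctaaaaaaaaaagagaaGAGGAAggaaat
Tlr5: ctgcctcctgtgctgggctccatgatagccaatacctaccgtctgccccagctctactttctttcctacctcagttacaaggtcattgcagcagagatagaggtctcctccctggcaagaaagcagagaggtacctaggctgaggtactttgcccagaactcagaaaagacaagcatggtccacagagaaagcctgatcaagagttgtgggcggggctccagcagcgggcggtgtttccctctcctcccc

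The capitals of Tlr2 are 2 overlapping matches to the kappaB consensus, from -173 to -163 relative to the RefSeq start. A further match in the Tlr2 window, from -8 to 1, lies inside the GENCODE exon and is not shown. Of all 32851 RefSeq windows of 300 bases, 8.46% held at least 1 kappaB match, 7.81% an AP-1 match, 28.3% a PU.1 core and 3.44% an ISRE core. The Tlr13 stretch held a PU.1 core from -83 to -78, and these letters were not found in the Tlr5 window. Among the other windows, Tlr3 held a kappaB match, Tlr1 and Tlr8 a PU.1 core each, and Tlr6 overlapping ISRE cores. These are matches of letters and not measured binding sites.

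Values per library are CPM, read counts scaled to a common library size with TMM factors. The highest depth was 28585995 reads in genes (PMA_1002 library 5) and the lowest 2656680 (PMA_ethanol library 3), and rows that name no gene held 28.5% to 32.85% of each table. All 10 genes passed the filter on low counts and none passed it through the inflamed groups alone, since every control mean was at least 2.79 CPM. The lowest counts were 4 reads of Tlr5 and 10 reads of Tlr3, both in PMA_ethanol library 3, the shallowest. Tests were two-sided quasi-likelihood tests in edgeR, with p-values adjusted over 14991 genes by the Benjamini-Hochberg method, a gene was called when its adjusted p was under 0.05, and fold changes are log2 values with standard errors (SE).

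PMA_ethanol versus control addressed how these receptors differed in the inflamed ears, and PMA and its ethanol cannot be told apart in it. Cd14 and 6 Toll-like receptors (Tlr1, Tlr2, Tlr4, Tlr6, Tlr8 and Tlr13) rose, Tlr3 and Tlr5 fell, and Tlr7 did not pass the test. Among all genes tested 32.5% rose and 35.9% fell, so a call by itself was common in this comparison, and 7 of 10 genes rose. In the same comparison 28.2% of all genes had every PMA_ethanol library above every control library and 29.6% every one below. The 7 genes that rose and the 2 that fell were apart in this way. The median fold change of the 10 genes was 1.91, against -0.0674 over all genes. The 10 genes were chosen with earlier results of these data known, so counts and medians over them are descriptions only. Of the Toll-like receptors left out, Tlr9 had 0.01 (edgeR adjusted p = 0.978), and Tlr11 and Tlr12 were too low to be tested. In bulk tissue, fewer cells of a type and less RNA per cell cannot be told apart.

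Cd14, on the minus strand of chromosome 18 from 36725067 to 36726798, had 845, 474, 723 and 644 CPM in the 4 PMA_ethanol libraries, against 8.67, 14.0, 14.1, 10.3 and 11.6 CPM in the 5 control libraries. The lowest PMA_ethanol library thus lay far above the highest control library. Cd14 rose 56.5-fold, or 5.82 on the log2 scale (SE 0.213, edgeR adjusted p = 2.06e-12). Tlr4 (chromosome 4, 66827584 to 66930284), the receptor to which Cd14 passes lipopolysaccharide, had 43.1, 35.8, 41.9 and 33.8 CPM in PMA_ethanol ears and 10.2, 7.23, 9.23, 11.4 and 11.6 CPM in control ears. All 4 PMA_ethanol values lay above all control values, by 1.95 on the log2 scale (SE 0.134, edgeR adjusted p = 1.31e-09).

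Tlr2 (chromosome 3, 83836272 to 83841767), which pairs with Tlr1 or Tlr6 to recognise lipoproteins of bacteria, had 76.3, 79.2, 97.9 and 111 CPM in PMA_ethanol ears, against 10.1, 10.2, 13.6, 9.25 and 9.35 CPM in control ears. Tlr2 rose by 3.09 (SE 0.156, edgeR adjusted p = 2.81e-11), with no overlap between the groups. Its partners are neighbours on chromosome 5, with 18467 bases between them. Tlr1 (64924679 to 64933563), the partner for triacylated lipopeptides, averaged 9.94 ± 2.09 CPM in PMA_ethanol ears (SD, n = 4) and 4.08 ± 1.20 CPM in control ears (SD, n = 5), a change of 1.28 (SE 0.253, edgeR adjusted p = 0.000261). Tlr6 (64952031 to 64960097), the partner for diacylated lipopeptides, averaged 15 ± 1.64 CPM in PMA_ethanol ears and 4.13 ± 0.927 CPM in control ears, a change of 1.86 (SE 0.183, edgeR adjusted p = 1.08e-07). Both partners lay at a few CPM in every control library, and both rose.

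Tlr5 (chromosome 1, 182954788 to 182976044), the receptor of bacterial flagellin, went the other way. It had 4.93, 4.12, 1.66 and 6.15 CPM in PMA_ethanol ears, against 14.7, 14.1, 18.3, 14.9 and 18.9 CPM in control ears. Every PMA_ethanol library was below every control library, by -1.86 (SE 0.244, edgeR adjusted p = 3.43e-06). Tlr5 was thus the one surface receptor of the 5 that fell.

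The endosomal receptors split in 3 ways. Tlr13 (chromosome X, 106143204 to 106160493), which in mice recognises bacterial ribosomal RNA, had 45.8, 38.9, 58.5 and 50.1 CPM in PMA_ethanol ears, against 3.99, 5.34, 7.14, 4.78 and 8.03 CPM in control ears, and rose by 3.01 (SE 0.181, edgeR adjusted p = 2.52e-10). Tlr8 (chromosome X, 167242696 to 167264329), a sensor of single-stranded RNA in humans, had 10.1, 15.6, 17.4 and 8.87 CPM in PMA_ethanol ears and 2.95, 2.76, 1.76, 3.54 and 2.95 CPM in control ears, and rose by 2.22 (SE 0.26, edgeR adjusted p = 8.9e-07). The PMA_ethanol libraries of both genes lay above all control libraries. Tlr7, a receptor of single-stranded RNA and the neighbour of Tlr8 at a distance of 40599 bases (167304929 to 167330558), had 7.56, 10.6, 11.6 and 8.73 CPM in PMA_ethanol ears, against 7.46, 8.10, 10.2, 9.25 and 7.05 CPM in control ears. These ranges overlapped and Tlr7 did not pass the test (0.17, SE 0.22, edgeR adjusted p = 0.506). Its sign turned with upper-quartile scaling (-0.06, edgeR adjusted p = 0.814).

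Tlr3 (chromosome 8, 45395665 to 45411080), the receptor of double-stranded RNA, had 6.36, 7.05, 4.15 and 5.29 CPM in PMA_ethanol ears and 8.84, 10.2, 8.74, 12.2 and 11.5 CPM in control ears. All PMA_ethanol libraries were below all control libraries, and Tlr3 fell by 0.79 (SE 0.169, edgeR adjusted p = 0.000517). Tlr3 shares 381 of its 5207 exon bases with the antisense gene Gm45542, which had 0 reads in these libraries, and the sources used here do not state the strand setting of the counting. All 9 calls held under the 25 alternatives run. With upper-quartile scaling 33.6% of called genes were higher, against 47.5% with TMM, and that scaling shifted the median fold change of all genes by -0.235.

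**Figure D1:**
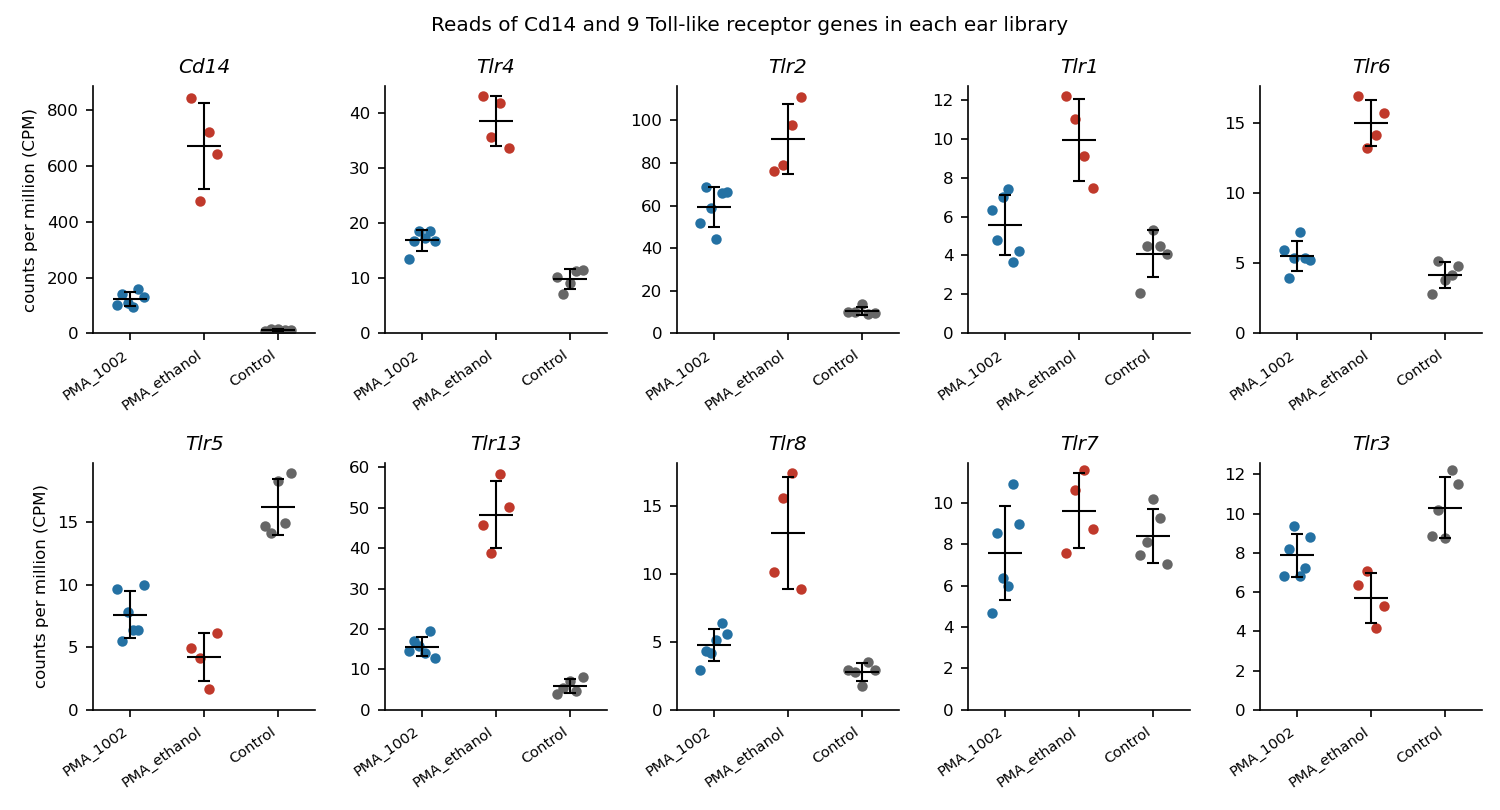
CPM of Cd14 and the 9 Toll-like receptors in each library (points) of PMA_1002 (n = 6), PMA_ethanol (n = 4) and control (n = 5), with the mean and SD of each group as black bars and a separate axis from 0 for each gene. Cd14 lies between 96.0 and 160 CPM in PMA_1002, between 474 and 845 CPM in PMA_ethanol and between 8.67 and 14.1 CPM in control, while Tlr5 and Tlr3 are highest in control.

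Some cell markers also differed between the groups, in both directions. The summed level of 10 neutrophil genes ranged from 1055.7 to 2429.2 CPM in PMA_ethanol ears and from 15.3 to 26.5 CPM in control ears. In control ears 4 of the 10 neutrophil genes had a mean of at least 1 CPM, and the granule genes Ngp and Ltf had no read in any library. In PMA_ethanol ears 6 of the 10 had a mean of at least 1 CPM, and Ly6g, Camp, Ngp and Ltf stayed below it. S100a8 and S100a9, which inflamed keratinocytes also make, held a large part of the PMA_ethanol sum. Csf3r, the receptor of granulocyte colony-stimulating factor, had 448 ± 130 CPM in PMA_ethanol ears and 2.42 ± 1.43 CPM in control ears. The 10 monocyte and macrophage genes summed to 872 to 1175.9 CPM in PMA_ethanol ears and to 431 to 494 CPM in control ears, and all 10 reached a mean of 1 CPM in both. Its members did not move together: Mrc1, a mannose receptor, had 483 ± 55.8 CPM in PMA_ethanol and 118 ± 7.79 CPM in control, and Ccr2, a chemokine receptor of monocytes, 114 ± 24.7 CPM in PMA_ethanol and 18.5 ± 3.78 CPM in control. Csf1r, the receptor of macrophage growth factor, had 156 ± 24.6 CPM in PMA_ethanol and 152 ± 16 CPM in control, and Mertk, a receptor for the uptake of dying cells, was lower without overlap, at 17.1 to 26.1 CPM in PMA_ethanol and 30.3 to 44.6 CPM in control. The 8 dendritic and Langerhans cell genes summed to 622 to 838 CPM in PMA_ethanol ears and 474 to 685 CPM in control ears, and 6 of them in PMA_ethanol and 7 in control reached a mean of 1 CPM. H2-Aa, a class II antigen-presenting gene, made up most of that sum (549 ± 106 CPM in PMA_ethanol and 511 ± 79.9 CPM in control). Beneath it Cd207, the Langerhans cell lectin, had 126 ± 36.6 CPM in PMA_ethanol and 28.8 ± 4.89 CPM in control, and Itgax 50.1 ± 9.47 CPM in PMA_ethanol and 9.85 ± 1.93 CPM in control, whereas Flt3 had 4.43 ± 1.55 CPM in PMA_ethanol and 8.67 ± 1.93 CPM in control. The 6 keratinocyte genes, which mark the epidermis that expresses several Toll-like receptors, summed to 10769.7 to 14353.2 CPM in PMA_ethanol ears and 19535.7 to 25817.7 CPM in control ears, and all 6 were detected. Krt10 was the largest part of that sum, with 6210.4 ± 692 CPM in PMA_ethanol and 13319.3 ± 1901.6 CPM in control. Trp63 differed less, with 271 ± 37.3 CPM in PMA_ethanol and 312 ± 35.4 CPM in control. Markers of skin and ear tissue (keratinocyte, fibroblast, endothelial, skeletal muscle and adipocyte lists) were detected in full in all groups. The 6 endothelial genes summed to 196 to 228 CPM in PMA_1002, 249 to 278 CPM in PMA_ethanol and 197 to 238 CPM in control, so that PMA_ethanol lay above both other groups without overlap, and within the list Cdh5 had 53.6 ± 1.14 CPM in PMA_1002, 81.7 ± 7.38 CPM in PMA_ethanol and 37.5 ± 5.55 CPM in control, and Vwf 28.4 ± 6.13 CPM in PMA_1002, 27.8 ± 5.22 CPM in PMA_ethanol and 41 ± 3.19 CPM in control. The 6 mast cell genes summed to 255 to 332 CPM in PMA_1002, 174 to 286 CPM in PMA_ethanol and 328 to 402 CPM in control, and the 10 lymphocyte genes to 24.9 to 37.3 CPM in PMA_1002, 26.6 to 46.2 CPM in PMA_ethanol and 32.8 to 50.8 CPM in control. Hair follicle genes varied widely within each group, from 7.12 to 1128.1 CPM in PMA_1002, 15.3 to 3515.3 CPM in PMA_ethanol and 46.1 to 3457.9 CPM in control. The part of these cell types in the receptor changes was not tested.

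PMA_1002 versus PMA_ethanol addressed what differed in inflamed ears with the peptide. Cd14, Tlr1, Tlr2, Tlr4, Tlr6, Tlr8 and Tlr13 were lower in PMA_1002 ears than in PMA_ethanol ears. Tlr5 was higher, and Tlr3 and Tlr7 did not pass the test. This comparison shares the PMA_ethanol libraries with the one before it. Of all genes 18% were called lower and 17% higher, and of the 10 genes 7 were lower and 1 was higher. The 7 lower genes had every PMA_1002 library below every PMA_ethanol library, as did 13% of all genes, while 11% had every PMA_1002 library above and none of the 10 did. The median fold change of the 10 genes was -1.03 against 0.0316 over all genes, with the same limit from how they were chosen. Tlr9, outside the 10, had -0.53 (edgeR adjusted p = 0.271).

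Cd14 had a lowest value of 96.0, a median of 120 and a highest of 160 CPM in the 6 PMA_1002 libraries, against 845, 474, 723 and 644 CPM in PMA_ethanol ears. The highest PMA_1002 library lay well under the lowest PMA_ethanol library, and Cd14 was at 0.183 of the PMA_ethanol level (-2.45, SE 0.168, edgeR adjusted p = 6.25e-08). Tlr4 ranged from 13.5 to 18.6 CPM with a median of 17.1 CPM in PMA_1002 ears, against 33.8 to 43.1 CPM in PMA_ethanol ears, a change of -1.19 (SE 0.123, edgeR adjusted p = 1.78e-06). For both genes every PMA_1002 library lay below every PMA_ethanol library.

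Tlr2 ranged from 44.5 to 68.7 CPM with a median of 62.3 CPM in PMA_1002 ears, against 76.3 to 111 CPM in PMA_ethanol ears. It fell by 0.61 (SE 0.135, edgeR adjusted p = 0.0022), the smallest fold change among the 7 genes that were lower, and its PMA_1002 libraries still lay below the PMA_ethanol libraries. Tlr6 had a lowest value of 3.95, a median of 5.36 and a highest of 7.21 CPM in PMA_1002 ears, against 16.9, 13.2, 14.1 and 15.7 CPM in PMA_ethanol ears, and fell by 1.46 (SE 0.169, edgeR adjusted p = 5.5e-06). Tlr1, the other partner of Tlr2, ranged from 3.67 to 7.42 CPM in PMA_1002 ears and from 7.44 to 12.2 CPM in PMA_ethanol ears, so that the groups were apart by a narrow margin (-0.88, SE 0.237, edgeR adjusted p = 0.00831).

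Tlr13 ranged from 12.9 to 19.6 CPM with a median of 15.1 CPM in PMA_1002 ears, against 38.9 to 58.5 CPM in PMA_ethanol ears, and fell by 1.6 (SE 0.158, edgeR adjusted p = 1.11e-06). Tlr8 ranged from 2.95 to 6.35 CPM in PMA_1002 ears and from 8.87 to 17.4 CPM in PMA_ethanol ears, and fell by 1.42 (SE 0.234, edgeR adjusted p = 0.00017). Neither gene had a PMA_1002 library inside the PMA_ethanol range. Tlr5, the flagellin receptor, had a lowest value of 5.48, a median of 7.08 and a highest of 10 CPM in PMA_1002 ears, against 1.66 to 6.15 CPM in PMA_ethanol ears. It was called higher (0.76, SE 0.237, edgeR adjusted p = 0.0197) although the groups overlapped. Tlr3 had 7.88 ± 1.09 CPM in PMA_1002 ears (SD, n = 6) and 5.71 ± 1.27 CPM in PMA_ethanol ears (SD, n = 4), with a change of 0.40 (SE 0.163, edgeR adjusted p = 0.071). Tlr7 had 7.58 ± 2.30 CPM in PMA_1002 ears and 9.64 ± 1.83 CPM in PMA_ethanol ears, with a change of -0.31 (SE 0.211, edgeR adjusted p = 0.277).

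The Tlr1 call was lost with libraries 1 to 4 of each group alone (-0.68, edgeR adjusted p = 0.0596). The Tlr5 call was lost without PMA_ethanol library 2 (0.70, edgeR adjusted p = 0.0579), the same omission by which Tlr3 passed (0.52, edgeR adjusted p = 0.0364), and it was also lost when the 2 groups were fitted alone (edgeR adjusted p = 0.0505). With upper-quartile scaling 61.8% of called genes were higher, against 48.7% with TMM, and Tlr3 passed (0.48, edgeR adjusted p = 0.0336).

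Beside these falls, the neutrophil genes summed to 233 to 489 CPM in PMA_1002 ears and 1055.7 to 2429.2 CPM in PMA_ethanol ears, with 6 of 10 at a mean of at least 1 CPM in both groups. The monocyte and macrophage genes summed to 570 to 765 CPM in PMA_1002 ears and 872 to 1175.9 CPM in PMA_ethanol ears. Of these, Mrc1 had 263 ± 39.3 CPM in PMA_1002 and 483 ± 55.8 CPM in PMA_ethanol, whereas Csf1r had 144 ± 20 and 156 ± 24.6 CPM. The dendritic and Langerhans cell genes summed to 494 to 683 CPM in PMA_1002 ears and 622 to 838 CPM in PMA_ethanol ears, most of it H2-Aa (473 ± 62.3 and 549 ± 106 CPM). Beneath it Itgax had 20.5 ± 3.1 and 50.1 ± 9.47 CPM, and Cd207 68.2 ± 11.7 and 126 ± 36.6 CPM. Flt3 (4.96 ± 1.25 and 4.43 ± 1.55 CPM) and Xcr1 (0.329 ± 0.206 and 0.189 ± 0.152 CPM) were not lower. The keratinocyte genes summed to 21916.5 to 25088.8 CPM in PMA_1002 ears and 10769.7 to 14353.2 CPM in PMA_ethanol ears. Krt10 was the largest part of the keratinocyte sum (13148.6 ± 767 and 6210.4 ± 692 CPM), and Trp63 differed less (354 ± 36.7 and 271 ± 37.3 CPM). What these cell types add to the receptor changes was not tested.

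**Figure D2:**
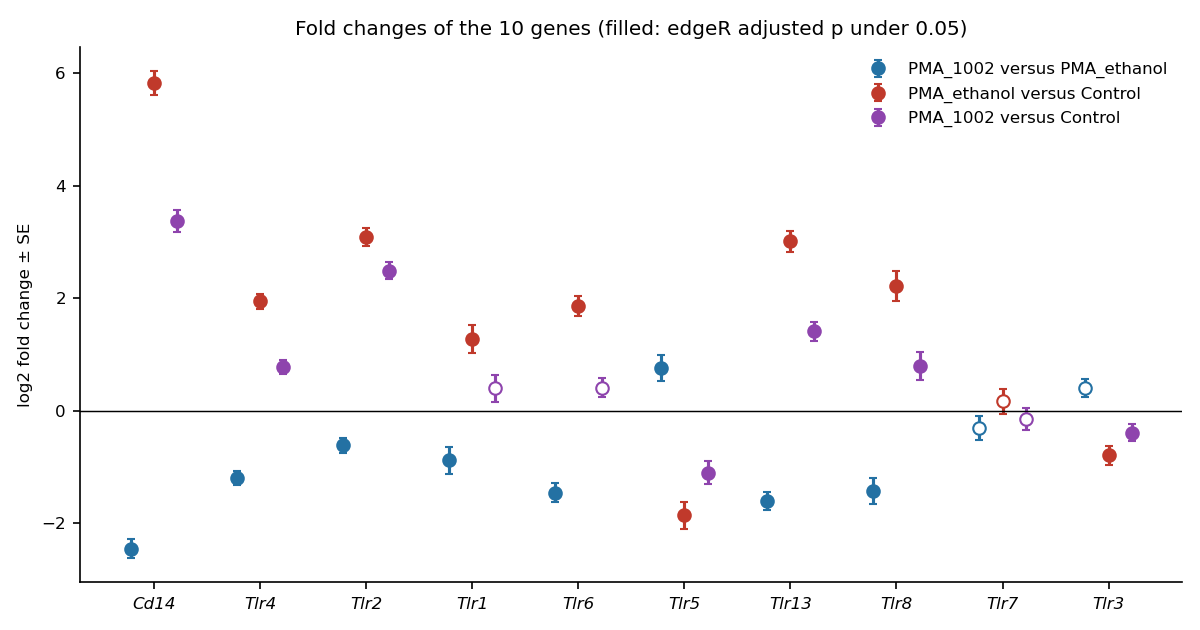
Log2 fold change with its SE for each gene in the 3 comparisons (colours), with filled points for genes called by edgeR and open points for the rest. Within each comparison the value largest in size is that of Cd14. It is 5.82 for PMA_ethanol versus control, -2.45 for PMA_1002 versus PMA_ethanol and 3.37 for PMA_1002 versus control. Tlr7 is open in all 3 comparisons.

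PMA_1002 versus control addressed how far these genes were from control ears when PMA was given with the peptide. Cd14, Tlr2, Tlr13, Tlr8 and Tlr4 were higher and Tlr5 and Tlr3 lower, while Tlr1, Tlr6 and Tlr7 did not pass the test. Of all genes 28.4% were called higher and 26.7% lower, against 5 and 2 of the 10 genes. Cd14, Tlr2, Tlr4 and Tlr13 had every PMA_1002 library above every control library, as did 20.2% of all genes, and Tlr5 had every one below, as did 16.5%. The control libraries are shared with the first comparison, so the values are set side by side only.

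Tlr2 had 59.4 ± 9.56 CPM in PMA_1002 ears (SD, n = 6) and 10.5 ± 1.77 CPM in control ears (SD, n = 5), a change of 2.49 (SE 0.147, edgeR adjusted p = 7.14e-10), beside 3.09 with PMA_ethanol. Cd14 had 123 ± 25.0 CPM in PMA_1002 ears and 11.7 ± 2.34 CPM in control ears, a change of 3.37 (SE 0.19, edgeR adjusted p = 9.69e-10), beside 5.82. Both were still several times above control. Tlr13 stood at 1.41 (SE 0.17, edgeR adjusted p = 3.04e-06) beside 3.01, and Tlr4 at 0.77 (SE 0.125, edgeR adjusted p = 7.09e-05) beside 1.95. Tlr8 stood at 0.80 (SE 0.247, edgeR adjusted p = 0.0107), with overlapping groups, beside 2.22.

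The partners of Tlr2 did not pass the test. Tlr6 had 5.51 ± 1.06 CPM in PMA_1002 ears and 4.13 ± 0.927 CPM in control ears, with a change of 0.41 (SE 0.173, edgeR adjusted p = 0.0556). Tlr1 had 5.56 ± 1.55 CPM in PMA_1002 ears and 4.08 ± 1.20 CPM in control ears, with a change of 0.40 (SE 0.238, edgeR adjusted p = 0.17). Tlr5 remained lower than in control ears (-1.10, SE 0.204, edgeR adjusted p = 0.000246). Tlr3 was called lower (-0.39, SE 0.148, edgeR adjusted p = 0.0347), with groups that overlapped, and Tlr7 had a change of -0.14 (SE 0.198, edgeR adjusted p = 0.581).

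The Tlr3 call was lost under 10 of 25 alternatives, among them the omission of control library 2, 4 or 5 (edgeR adjusted p = 0.0544, 0.1 and 0.0852) or of PMA_1002 library 1, 4 or 5 (edgeR adjusted p = 0.0846, 0.0718 and 0.0705). Tlr6 passed without control library 2 or 5 (edgeR adjusted p = 0.0319 and 0.0499), without PMA_1002 library 2 (edgeR adjusted p = 0.0232) or with the hair follicle level as a covariate (0.48, edgeR adjusted p = 0.0362), with which Tlr1 also passed (0.62, edgeR adjusted p = 0.0202). The Tlr8 call was lost with libraries 1 to 4 of each group alone (0.63, edgeR adjusted p = 0.0919), and 34.6% of called genes were higher with upper-quartile scaling, which shifted the median of all genes by -0.158, against 51.5% with TMM. Neutrophil genes summed to 233 to 489 CPM in PMA_1002 ears and 15.3 to 26.5 CPM in control ears, and monocyte and macrophage genes to 570 to 765 CPM in PMA_1002 ears and 431 to 494 CPM in control ears. Members of the latter list went different ways. Mrc1 had 263 ± 39.3 CPM in PMA_1002 and 118 ± 7.79 CPM in control, and Ccr2 65.2 ± 15.4 and 18.5 ± 3.78 CPM. Csf1r had 144 ± 20 CPM in PMA_1002 and 152 ± 16 CPM in control, and Mertk was lower, at 24.2 ± 1.96 and 36.7 ± 5.22 CPM. The part of these cell types was not tested.

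Levels of different genes were compared per kilobase of exon, as RPKM from the TMM-scaled CPM and the union of exons. In PMA_1002 ears the order of mean levels was Cd14 (70.7 RPKM), Tlr2 (19.7), Tlr13 (3.63), Tlr4 (3.05), Tlr7 (1.86), Tlr1 (1.66), Tlr5 (1.59), Tlr3 (1.51), Tlr6 (1.48) and Tlr8 (1.33), with Cd14 apart from Tlr2 and Tlr2 apart from Tlr13 in every library. Below Tlr2 all neighbours in that order overlapped in range, and with the length of the longest transcript in place of the exon union Tlr4 was in position 3, Tlr13 in position 4, Tlr5 in position 5, Tlr7 in position 6 and Tlr1 in position 7. In PMA_ethanol ears the order was Cd14 (388 RPKM), Tlr2 (30.2), Tlr13 (11.2), Tlr4 (6.95), Tlr6 (4.02), Tlr8 (3.63), Tlr1 (2.97), Tlr7 (2.36), Tlr3 (1.10) and Tlr5 (0.880). There Cd14, Tlr2, Tlr13, Tlr4 and Tlr6 were each apart from the next of these genes, and Tlr7 was apart from Tlr3, while Tlr6, Tlr8, Tlr1 and Tlr7 overlapped in turn, as did Tlr3 and Tlr5.

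In control ears the levels lay closer together, at 6.78 RPKM for Cd14, 3.48 for Tlr2, 3.38 for Tlr5, 2.06 for Tlr7, 1.97 for Tlr3, 1.79 for Tlr4, 1.36 for Tlr13, 1.22 for Tlr1, 1.11 for Tlr6 and 0.779 for Tlr8. Cd14 was apart from Tlr2, and Tlr5 from Tlr7, and the other neighbours overlapped. Tlr5 overlapped with Tlr2 in control ears and was last in PMA_ethanol ears, and with the longest transcript Tlr5 was in position 2, Tlr2 in position 3, Tlr4 in position 4 and Tlr7 in position 6 in control ears. The summed level of the 5 surface receptors ranged between 23.4 and 29.8 RPKM in PMA_1002, between 40.5 and 50.5 RPKM in PMA_ethanol and between 9.63 and 12.6 RPKM in control. The 4 endosomal receptors summed to 6.64 to 10.4 RPKM in PMA_1002, 16.5 to 22.1 RPKM in PMA_ethanol and 5.28 to 6.71 RPKM in control.

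**Figure D3:**
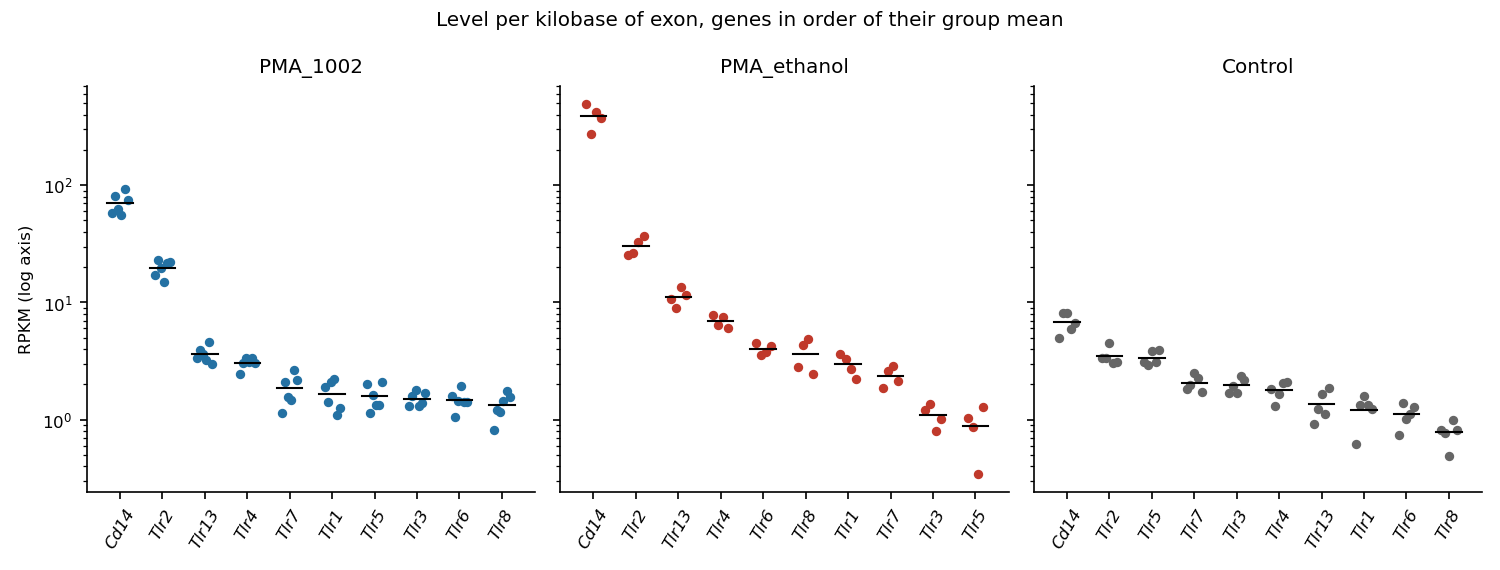
RPKM on a log axis for each gene in each library (points) with the group mean (line), ordered by the mean within PMA_1002, PMA_ethanol and control. Cd14 and Tlr2 lead in each group, and Tlr5 is in position 7 in PMA_1002, 10 in PMA_ethanol and 3 in control with the exon union as the length (5 in PMA_1002 and 2 in control with the longest transcript).

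Ratios within a library do not depend on its scaling, and they are given as a description without a test. The level of Cd14 over that of Tlr2 lay at 3.22 to 4.21 in PMA_1002 libraries, 10.1 to 19.3 in PMA_ethanol libraries and 1.5 to 2.39 in control libraries, with no overlap among the 3 groups. Cd14 over Tlr4 likewise did not overlap, at 17.8 to 27.6 in PMA_1002, 42.5 to 62.9 in PMA_ethanol and 2.72 to 6.20 in control. Tlr2 over Tlr6 had a median of 14.4 in PMA_1002, 8 in PMA_ethanol and 2.74 in control, and the first 2 of these groups overlapped (7.67 to 21.5 and 5.58 to 8.70). Tlr2 was thus above Tlr6 in every library of the 3 groups. Tlr13 over Tlr7 ranged between 1.36 and 2.92 in PMA_1002, between 3.46 and 5.73 in PMA_ethanol and between 0.489 and 1.08 in control. Tlr8 over its neighbour Tlr7 ranged between 0.584 and 0.986 in PMA_1002, between 1.15 and 1.71 in PMA_ethanol and between 0.197 and 0.476 in control.

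**Figure D4:**
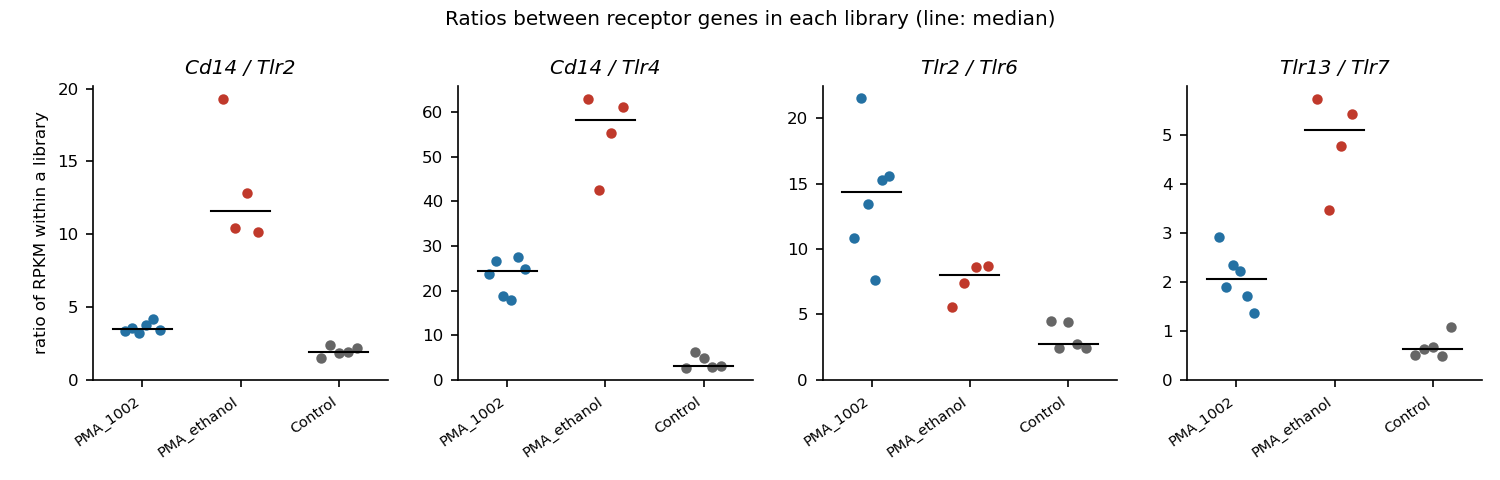
Ratio of the RPKM of 2 genes within each library (points) of PMA_1002, PMA_ethanol and control, with the group median as a line and axes from 0. Cd14 over Tlr2 separates all 3 groups, with medians of 3.49 in PMA_1002, 11.6 in PMA_ethanol and 1.94 in control, and Tlr2 over Tlr6 has its highest median, 14.4, in PMA_1002.

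Other genes of the pathway were described from a list of 52 in 5 roles, of which 50 were tested. The adaptors Ticam2 and Sarm1 were too low to be tested. In PMA_ethanol versus control 36 of the 50 rose and 5 fell, with a median of 0.66. In PMA_1002 versus PMA_ethanol 4 were higher and 31 lower, with a median of -0.38. In PMA_1002 versus control 28 were higher and 5 lower, with a median of 0.31. Of all genes tested, 32.5% rose and 35.9% fell in PMA_ethanol versus control. In PMA_1002 versus PMA_ethanol 17% were higher and 18% lower, and in PMA_1002 versus control 28.4% and 26.7%. The counts by role below stand beside these same shares.

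All 4 tested adaptors rose with PMA_ethanol and were lower with PMA_1002 than with PMA_ethanol. Myd88, the adaptor of most Toll-like receptors, ranged between 141 and 165 CPM in PMA_1002, between 250 and 277 CPM in PMA_ethanol and between 35.6 and 39.7 CPM in control, without overlap. Its changes were 2.74 for PMA_ethanol versus control (SE 0.0688, edgeR adjusted p = 2.16e-14), -0.76 for PMA_1002 versus PMA_ethanol (SE 0.062, edgeR adjusted p = 1.68e-07) and 1.98 for PMA_1002 versus control (SE 0.0637, edgeR adjusted p = 7.42e-13). Tirap, which brings Myd88 to Tlr2 and Tlr4, changed by 1.49, -0.57 and 0.92 in the same order, and Pik3ap1, which links the receptors to PI3 kinase, by 3.77, -2.43 and 1.34, all called.

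Of 16 kinases and ligases 11 rose and 2 fell with PMA_ethanol, and in PMA_1002 versus PMA_ethanol 2 were higher and 8 lower. Map3k8, a kinase upstream of ERK, rose by 1.54 with PMA_ethanol versus control and was lower by -0.59 in PMA_1002 versus PMA_ethanol, and Traf3, a ligase of the interferon branch, had 1.45 and -0.42. Tbk1, a kinase of the same branch, rose by 0.86, and Irak2, a kinase of the Myd88 complex, was lower by -0.57 in PMA_1002 than in PMA_ethanol. Of 8 co-receptors and accessory proteins 5 rose and 1 fell with PMA_ethanol, led by the leukocyte integrin chains Itgb2 (2.58) and Itgam (2.93) and by Lbp, the lipopolysaccharide-binding protein (1.15). In PMA_1002 versus PMA_ethanol 1 was higher and 4 lower, with Itgb2 at -1.28, Itgam at -1.31 and Ly86, the partner of Cd180, at -1.17. Ly96, named after its values were seen because Tlr4 needs it for lipopolysaccharide, had 2.37 ± 0.711 CPM in PMA_1002, 2.81 ± 1.38 CPM in PMA_ethanol and 1.94 ± 0.194 CPM in control and did not pass in any comparison (edgeR adjusted p = 0.299 for PMA_1002 versus PMA_ethanol, 0.0639 for PMA_ethanol versus control and 0.495 for PMA_1002 versus control).

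Of 10 trafficking and processing genes, which serve the endosomal receptors for the most part, 8 rose and 1 fell with PMA_ethanol, and 8 were lower in PMA_1002 than in PMA_ethanol. Slc15a3, an endolysosomal peptide transporter, led with 4.06 for PMA_ethanol versus control and -1.68 for PMA_1002 versus PMA_ethanol. The protease gene Ctsl had 1.39 and -0.80, and the transporter gene Slc15a4, needed for Tlr7 signalling, 1.18 and -0.66. Unc93b1, the chaperone of the endosomal receptors and named after its values were seen, had 0.56 (edgeR adjusted p = 0.00404) and -0.63 (edgeR adjusted p = 0.00339).

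Of 12 brakes on the pathway 8 rose and 1 fell with PMA_ethanol, and in PMA_1002 versus PMA_ethanol 1 was higher and 7 lower. Socs1, an inhibitor of cytokine signalling, had 3.34 for PMA_ethanol versus control and -1.17 for PMA_1002 versus PMA_ethanol. Il1rl1, the interleukin-33 receptor that mast cells and other leukocytes also carry, had 3.8 and -2.26. Tnip1, a partner of the ubiquitin editor Tnfaip3, had 2.27 and -0.80, and Tnfaip3 itself remained above control by 3.25 in PMA_1002 (SE 0.195, edgeR adjusted p = 2.23e-09).

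**Figure D5:**
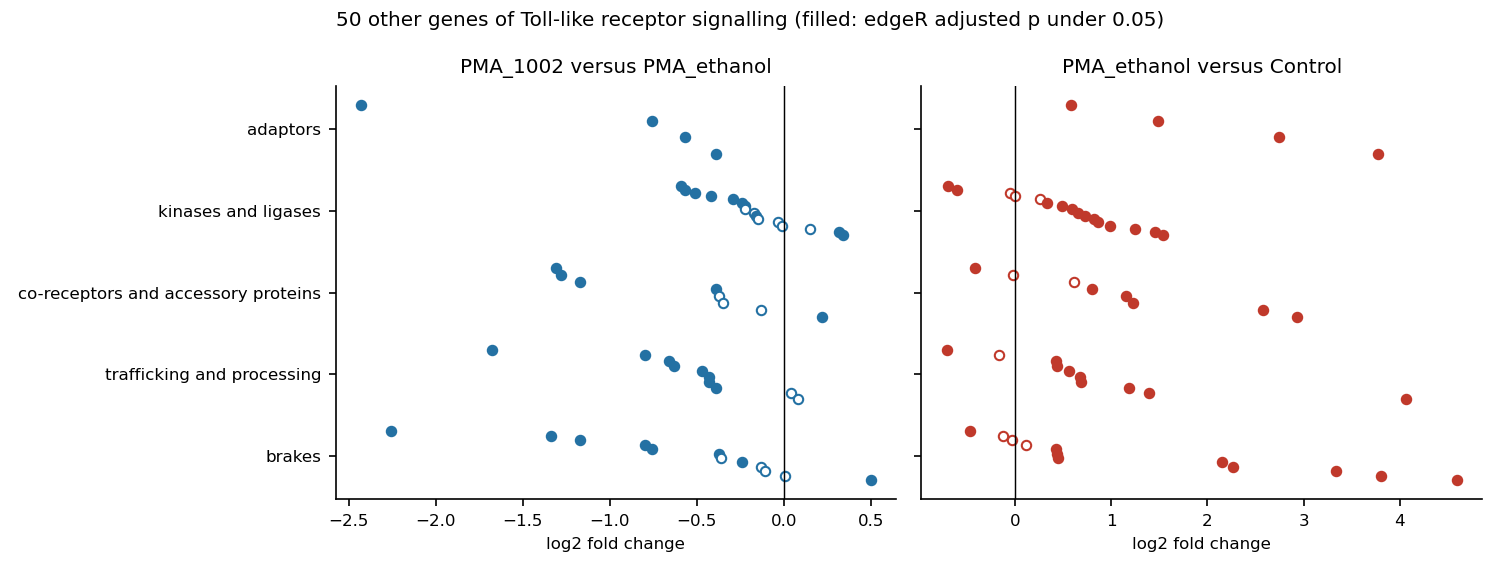
Log2 fold changes of the 50 other pathway genes tested, by role, for PMA_1002 versus PMA_ethanol (left) and PMA_ethanol versus control (right), with filled points for genes called by edgeR and the vertical spread within a role for legibility only. All 4 adaptors lie left of 0 in the first comparison and right of 0 in the second, and the x axes differ in scale.

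The Toll-like receptors outside the 10 genes were low. Tlr9, the receptor of CpG DNA, had 1.45 ± 0.434 CPM in PMA_1002, 1.83 ± 0.956 CPM in PMA_ethanol and 1.96 ± 0.886 CPM in control and did not pass in any comparison (edgeR adjusted p from 0.213 to 0.978). Tlr11, a sensor of profilin in mice, was not tested and had 2 reads in all over the PMA_1002 libraries, 5 over the PMA_ethanol libraries and 49 over the control libraries. Tlr12 had 0 reads over the PMA_1002 libraries, 3 over the PMA_ethanol libraries and 3 over the control libraries.

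Profiles most like each gene were sought over the 15 libraries by the root mean square distance between log2 CPM values, each centred on its gene's mean. This is a description, and the genes share libraries and groups. Nearest to Cd14 were Trim30b (distance 0.273), Timp1 (0.299) and Hbegf (0.314), and nearest to Tlr2 were Nfkbie (0.189), Nfkb2 (0.192) and Sbno2 (0.217). Tlr4 lay next to Gadd45a (0.168), Rap2b (0.181) and Nabp1 (0.191), Tlr6 next to Sesn2 (0.232), Plau (0.253) and Itgb3 (0.254), and Tlr1 next to Fabp5 (0.256), Zmynd15 (0.261) and Fscn1 (0.274). Tlr13 lay next to Oaf (0.194), Tnfrsf1b (0.205) and Mxd1 (0.221), and Tlr8 next to Fcgr3 (0.264), Milr1 (0.305) and Tlr4 (0.32), the only one of the 10 genes found among the 3 nearest of another. The genes that fell with PMA_ethanol were nearest to Scrn1 (0.20), Fgfr4 (0.225) and Zfp667 (0.23) for Tlr5 and to Pot1a (0.133), Qpct (0.135) and Timm21 (0.142) for Tlr3. Tlr7 was nearest to Trdc (0.211), H2-Aa (0.223) and Tmed8 (0.228).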

How the data were processed

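The deposited tables hold raw read counts per Ensembl gene as the authors counted them, 1 table per library. Per the labels' protocols, polyA RNA was used with a stranded kit, and the tools named by the submitters' processing notes are STAR 2.5, HTSeq, FastQC 0.11.5 and MultiQC 0.8, with GRCm38 as the build. The sources used here do not state the strand setting or the annotation release. Rows that name no gene (28.5% to 32.85% of each table) were left out of library sizes and tests. Tests on the counts used edgeR 4.0.16 under R 4.3.3 (TMM scaling, filterByExpr, robust quasi-likelihood fit over 15 libraries, group as the only term, 14991 genes tested). Log2 CPM used a prior count of 2, and SEs were derived from the F statistic. Limma 3.58.1 (voom) and DESeq2 1.42.0 were alternatives, as were other scalings, no filter, only the groups compared, a replicate block, a hair follicle covariate and leaving out each library. The test was checked on simulated data, in which it recovered 40.3% to 50.7% of 1.5-fold changes and 74.6% to 85.1% of 2-fold changes. The simulation changed 66 or 67 genes at each fold, far fewer than were called in the data. Its recovery may therefore differ from that of these comparisons. A small change that did not pass may still have been missed. All libraries were counted as distinct (chi-square per degree of freedom from 2.927 to 27.018 over 31 pairs within groups). Groups came from the sample titles. The 10 genes, the pathway and marker lists and the rules were chosen with earlier results of these data known. All 10 genes were named, up to 3 called genes of each pathway role with the smallest adjusted p, and the 3 nearest profiles of each gene. The number of libraries limits the precision.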

Additional observations from a re-analysis of the deposited data

Results flagged for a closer look

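In each group the library farthest from the others was compared with the range of its group on the log2 CPM scale (Dixon's ratio), for 30 combinations of gene and group, of which 3 were past the 95% critical value, where chance flags about 1 in 20. Tlr4 in PMA_1002 library 1 had 13.5 CPM, against 16.8 to 18.6 CPM in the other libraries of the group (ratio 0.679). Tlr1 in control library 1 had 2.08 CPM, against 4.10 to 5.29 CPM in the others (ratio 0.721), and Tlr2 in control library 3 had 13.6 CPM, against 9.25 to 10.2 CPM in the others (ratio 0.754). Without control library 1 Tlr1 changed by 1.12 for PMA_ethanol versus control, without control library 3 Tlr2 by 3.22, and without PMA_1002 library 1 Tlr4 by -1.13 for PMA_1002 versus PMA_ethanol, all still called by edgeR.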

How the results depend on the processing

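The 30 fold changes of the 10 genes were recomputed under 25 alternatives, 1 of which (libraries 1 to 4 without a block) was chosen after seeing the data. Of 750 values 722 kept their direction and side of the threshold, 18 lost the call, 8 gained it and 2 changed sign. The sign changes were those of Tlr7, which was not called: -0.06 for PMA_ethanol versus control with upper-quartile scaling, and 0.00 for PMA_1002 versus control without PMA_1002 library 1, where leaving out each library gave -0.29 to 0.00. For PMA_ethanol versus control no call of the 10 genes changed. With upper-quartile scaling 29 of the other pathway genes were called higher and 9 lower, against 36 and 5 in the main fit. All genes moved the same way, with 3682 higher and 7262 lower against 4876 and 5382 in the main fit.

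For PMA_1002 versus PMA_ethanol, 2 of the 10 genes were higher with upper-quartile scaling and 0 with only the groups compared, with the replicate block or with libraries 1 to 4 alone, where Tlr1 also lost its call (edgeR adjusted p = 0.104 with the block and 0.0596 without it). Pathway genes called higher numbered 0 with the block, 1 with libraries 1 to 4 alone and 2 to 4 when each library was left out. Of all genes 2553 were called higher in the main fit and 3432 with upper-quartile scaling. With the block 1551 were, and with libraries 1 to 4 alone 1832. For PMA_1002 versus control, 1 of the 10 genes was lower with no filter, with the block, with libraries 1 to 4 alone and with the hair follicle covariate, and 1 to 2 when each library was left out. Pathway genes called lower numbered 3 with no filter, 2 with the block, 2 with libraries 1 to 4 alone and 3 to 6 when each library was left out. Of all genes 3998 were called lower in the main fit, 2712 with the block and 3074 with libraries 1 to 4 alone. Tlr8 lost its call with the block (edgeR adjusted p = 0.133) and with libraries 1 to 4 alone (edgeR adjusted p = 0.0919). The block and the libraries 1 to 4 fits hold fewer samples; for the others the cause was not tested.

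No pairing by replicate number was seen: deviations of 13 same-numbered pairs correlated at -0.533 to 0.579, 2 of them over 0.1, and 1 of 14 libraries correlated best with its own number. The labels do not say what the numbers mean, so this check cannot decide whether samples were paired. The block could be fitted on libraries 1 to 4 only. For PMA_1002 versus PMA_ethanol 1551 genes were higher and 1970 lower with it, against 1832 and 2241 in the same libraries without a block and 2553 and 2691 in all 15 libraries, and Tlr7 was called with the block (-0.59, edgeR adjusted p = 0.0363). At 4 reads for Tlr5 in PMA_ethanol library 3, depth limits the values of the low genes.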
